A study of Mus musculus with 6 samples.

Results

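Naive-like CD8 T cells of the metastatic liver were chosen by a rule on the deposited values, which are scaled scores per gene and cell. A cell was a member if its mean score of Cd8a and Cd8b1 was above 1.5, its mean score of Cd3e, Cd3g, Trac and Trbc2 was above 0.5, its mean score of Lef1, Tcf7 and Ccr7 was above 1 and its Cd79a score was below 1. This gave 204 cells of 23008. The cells came from 6 single-cell RNA-seq libraries of immune cells sorted on CD45 from pieces of liver. Balb/c mice had received 4T07 cells, a mammary tumour line of the same strain, in the heart, and these tumour cells carried either a control shRNA (4T07 Ctrl) or an shRNA against Tim3 (Tim3-KD). The knockdown was in the tumour cells, and the T cells of the mice were not modified. Livers were collected on day 3 (adjacent tissue, micrometastasis) or day 12 (macrometastasis), and the age of the mice is not given in the sources used here. Each group was 1 library made from pooled mice. No test within a site was therefore possible. Over the 3 sites as pairs of a Ctrl and a Tim3-KD library, an exact sign-flip test cannot go below a two-sided p of 0.25, and none was made. All intervals below are 95% intervals that cover counting error only, as an error between mice could not be estimated.

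Naive CD8 T cells have left the thymus and have not yet met their antigen. They travel between blood and lymphoid organs, which they enter with CCR7 and leave with the receptor S1PR1, and they live on IL-7 through the receptor IL7R. TCF7 and LEF1 are the transcription factors that keep this state. After activation CD8 T cells lose these genes, divide and switch on granzymes, perforin, chemokines such as CCL5 and interferon-γ. Memory T cells lie in between and can carry IL7R and TCF7 together with CCL5 or NKG7, so the rule takes in naive cells and part of the memory cells.

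The members numbered 15 of 1803 cells in adjacent tissue Ctrl, 13 of 542 in adjacent tissue Tim3-KD, 44 of 5106 in micrometastasis Ctrl, 25 of 5142 in micrometastasis Tim3-KD, 48 of 4913 in macrometastasis Ctrl and 59 of 5502 in macrometastasis Tim3-KD. Their median number of unique molecular identifiers (UMIs, counted transcript molecules) per cell was 7332, 16243, 5309.5, 4167, 5941 and 5633 in that order. The members of adjacent tissue Tim3-KD were thus the most deeply read. Of 22948 distinct cell barcodes, 59 occurred in more than 1 library, 2 of them with a member in a library and 0 with members in more than 1 library. The levels below are CPM, the usual depth-scaled unit of sequencing counts, that is UMIs of a gene relative to the UMIs of all genes, summed over the cells named. They rest on UMIs recovered from the scores, and the deposited matrices held 7.34% to 11.2% of the members' UMIs.

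The genes that chose the cells are given first, as a description. All 204 members had a UMI of at least 1 of Lef1, Tcf7 and Ccr7. A total of 77 members had UMIs of all 3 genes, 86 of 2 and 41 of 1. Cd8a and Cd8b1, the 2 chains of the CD8 co-receptor, were both seen in 128 members. A further 51 members had Cd8b1 without Cd8a and 25 had Cd8a without Cd8b1. Cd4, the co-receptor of the other T cell lineage, had a UMI in 12 members. Ccr7 (chromosome 11, 99144196 to 99155077, minus strand, GRCm38) reached 598, 567, 412, 381, 443 and 561 CPM in the 6 libraries, in the order given above. Lef1 (chromosome 3, 131110471 to 131224356, plus strand) reached 449, 345, 229, 215, 197 and 253 CPM. Tcf7 (chromosome 11, 52252371 to 52283014, minus strand) reached 277, 236, 197, 187, 194 and 239 CPM. Each of the 3 genes was highest in adjacent tissue Ctrl.

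The score of a gene depends on the site, because the sites were scaled separately. In a cell of 5000 UMIs, 1 UMI of Tcf7 scored 2.94, 4.64 and 3.16 in adjacent tissue, micrometastasis and macrometastasis. The same UMI of Ccr7 scored 0.685, 1.68 and 1.17. One gate therefore asked for other numbers of UMIs at each site, and shares are compared below mainly between Ctrl and Tim3-KD of the same site. Some cells lay at the edge of the naive gate, and the edges of the CD8 and T cell gates were not counted. Of 626 CD8 T cells (cells that passed the CD8, T cell and Cd79a conditions), 25 had a mean naive score up to 0.25 above the limit of 1 and 16 up to 0.25 below it. The 25 cells inside are part of the 204 members, and shares under raised gates are given with the alternatives further below. The lowest score inside was 1.00 and the highest outside was 0.991.

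Among all CD45+ cells, members made up 0.832% (0.466% to 1.37%, exact Clopper-Pearson) in adjacent tissue Ctrl and 2.40% (1.28% to 4.07%) in adjacent tissue Tim3-KD. In micrometastasis the share was 0.862% (0.627% to 1.16%) with Ctrl and 0.486% (0.315% to 0.717%) with Tim3-KD. Macrometastasis held 0.977% (0.721% to 1.29%) with Ctrl and 1.07% (0.817% to 1.38%) with Tim3-KD. Members thus took the smallest share in micrometastasis Tim3-KD. The difference of Tim3-KD minus Ctrl was -0.376 percentage points in micrometastasis (Newcombe interval -0.708 to -0.0574) and 0.0953 points in macrometastasis (-0.301 to 0.486). With T cells as the denominator the micrometastasis difference was -3.35 points, with an interval that reached over 0 (-7.08 to 0.446). Adjacent tissue gave 1.57 points (0.439 to 3.26), in libraries of very unequal cell number.

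Within the CD8 T cells the members' share was 45.5% (28.1% to 63.6%) in adjacent tissue Ctrl and 61.9% (38.4% to 81.9%) in adjacent tissue Tim3-KD. In micrometastasis it was 33.3% (25.4% to 42.1%, 44 of 132) with Ctrl and 16.3% (10.9% to 23.2%, 25 of 153) with Tim3-KD. In macrometastasis it was 36.6% (28.4% to 45.5%, 48 of 131) and 37.8% (30.2% to 45.9%, 59 of 156). In Tim3-KD micrometastasis the remaining 128 CD8 T cells fell outside the naive gate, against 88 in Ctrl. The difference of Tim3-KD minus Ctrl was -17.0 points in micrometastasis (-26.8 to -6.98), 1.18 points in macrometastasis (-10.0 to 12.2) and 16.5 points in adjacent tissue (-10.3 to 39.8). CD8 T cells as a whole made up 2.59% of CD45+ cells in micrometastasis Ctrl and 2.98% in micrometastasis Tim3-KD. In micrometastasis CD8 T cells had a median of 5013.5 UMIs with Ctrl and 4626 with Tim3-KD, while all CD45+ cells had 7531 and 9359.5, so depth differed the other way over the whole libraries. With only cells of at least 3000 UMIs no share or difference of shares moved out of its interval. Depth was not matched between the libraries, so its part in the shares was not tested. In Tim3-KD, the share among CD8 T cells in macrometastasis was 21.5 points above that in micrometastasis (11.6 to 30.8), and in Ctrl 3.31 points (-8.14 to 14.6), across sites whose gates mean different UMI numbers and whose days differ.

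**Figure D1:**
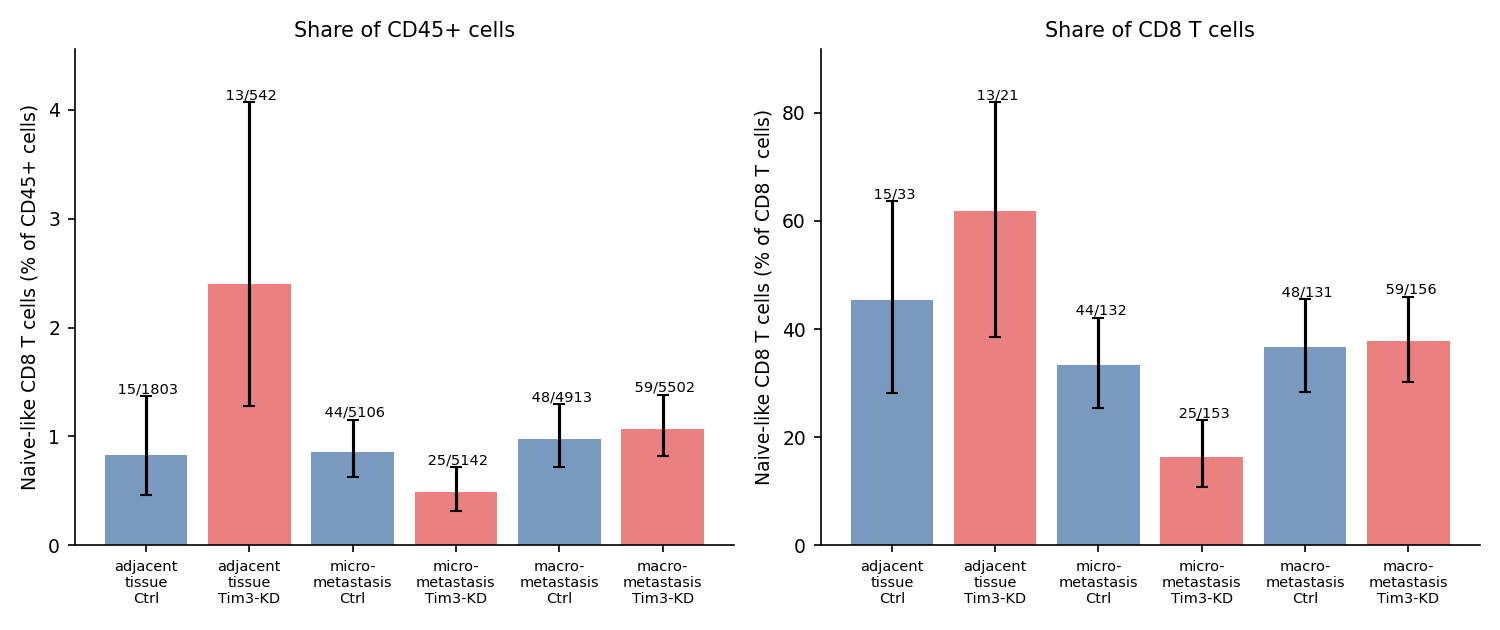
Share of naive-like CD8 T cells among CD45+ cells and among CD8 T cells in each of the 6 libraries, in percent. Bars are shares and lines their exact 95% intervals (counting error only), with 1 library per group. Members made up 16.3% of CD8 T cells in micrometastasis Tim3-KD and 33.3% in micrometastasis Ctrl.

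A few members carried transcripts of other cells or of dividing cells. In each of the 4 metastasis libraries exactly 1 member had UMIs of Siglech, a surface receptor of plasmacytoid dendritic cells, with 18, 12, 15 and 11 UMIs, and 0 of the other members had any. Each of these 4 cells also held Ccr9, Klk1, Tcf4, Bst2 and Irf8, 2 UMIs of Cd8a and 0 of Cd8b1. Cd8a and Tcf4 are known in plasmacytoid dendritic cells. A total of 9 members had at least 10 UMIs of the 4 MHC class II genes H2-Aa, H2-Ab1, H2-Eb1 and H2-Ea, which antigen-presenting cells use, and these held 94.8% of all such UMIs. Cycling cells, with at least 3 UMIs over Mki67, Top2a, Birc5, Pclaf, Rrm2 and Ube2c, numbered 7 of 204 (3.43%, 1.39% to 6.94%) and held 93.9% of the cycle UMIs. Among the other CD8 T cells of the metastasis libraries 19.3% to 21.1% were cycling.

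Markers of B cells, neutrophils and Kupffer cells (the resident liver macrophages) were counted in all members, as free RNA or a second cell could add them. At least 2 UMIs over these lists were present in 4 of 15, 11 of 13, 8 of 44, 9 of 25, 11 of 48 and 25 of 59 members, in the order of libraries used above. The 11 measured B cell genes summed to 43.1 to 109 CPM per library, and 3 to 10 of them were at 0. Kupffer markers summed to 388 CPM in micrometastasis Tim3-KD and to at most 90.8 CPM in the other libraries, with Marco and Folr2 at 0 in all 6. Neutrophil markers reached 180 CPM in micrometastasis Tim3-KD and 13.6 to 99.3 CPM elsewhere. Micrometastasis Tim3-KD, the library with the lowest share of members, thus also had the highest Kupffer and neutrophil levels in its members, and their part in the differences below was not tested. Without the members with such UMIs the share among CD45+ cells was 0.610% (Ctrl) against 0.369% (Tim3-KD) for adjacent tissue, 0.705% against 0.311% for micrometastasis, and 0.753% against 0.618% for macrometastasis. The difference of Tim3-KD minus Ctrl then stayed at -0.394 points in micrometastasis (-0.689 to -0.119). It turned to -0.241 points in adjacent tissue (-0.790 to 0.762) and to -0.135 points in macrometastasis (-0.468 to 0.185). Such cells were taken out of the members only, and a larger part of the members fell out with Tim3-KD than with Ctrl at each site. The negative sign in micrometastasis was thus bound to stay, and this setting is no check of it. The limit of 2 UMIs is also reached more easily in deeply read cells, and the part of depth was not tested.

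The members were then set beside the other 422 CD8 T cells, those with a mean naive score of at most 1. Folds are on a log2 scale with 10 CPM added to both sides, and the comparison was made in the 4 metastasis libraries, because adjacent tissue had too few cells. Of 999 genes, 14 (1.4%) were at least 2-fold higher in members in all 4 libraries and 16 (1.6%) at least 2-fold lower. Lef1, Tcf7 and Ccr7 are among the 14 and were used by the rule, so they are no finding. The other 11 were Il7r, Satb1, Id3, Trib2, Kbtbd11, Cxcr4, Gramd3, Dusp10, Gm20186, Dyrk2 and Ms4a4c. The 16 lower genes were Gzma, Gzmb, Prf1, Ccl4, Xcl1, Nkg7, Klrk1, Klre1, Cxcr6, S100a4, Csf1, AA467197, Osgin1, Chsy1, AW112010 and Cdk6.

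Il7r, the gene of the IL-7 receptor chain (chromosome 15, 9505788 to 9530176, minus strand), was at 441, 345, 280 and 471 CPM in members of micrometastasis Ctrl, micrometastasis Tim3-KD, macrometastasis Ctrl and macrometastasis Tim3-KD. The other CD8 T cells of the same libraries had 87.4, 51.5, 103 and 117 CPM of Il7r. All 4 member levels lay above all 4 levels of the other CD8 T cells, and the median difference was 2.07 on the log2 scale. In adjacent tissue Il7r was at 471 CPM in Ctrl members and 413 in Tim3-KD members, within the range of the metastasis libraries. S1pr1, the exit receptor (chromosome 3, 115710433 to 115715072, minus strand), was at 136, 86.2, 69.9 and 140 CPM in members against 17.8, 5.60, 34.7 and 9.91 CPM in the other CD8 T cells. Its median difference was 2.51 and its smallest 0.84, in macrometastasis Ctrl, which kept S1pr1 out of the 14. Satb1, a chromatin organiser of T cells, was at 244, 144, 271 and 284 CPM in members against 76.7, 31.4, 69.5 and 61.7 CPM. Klf2, the transcription factor that drives S1pr1, was at 237, 194, 225 and 227 CPM against 74.9, 71.7, 110 and 54 CPM, and missed 2-fold only in macrometastasis Ctrl (0.96 on the log2 scale). The list of naive and recirculation genes, with 19 measured members outside the rule, had 2 past the threshold in every library (Il7r and Satb1). Of all 999 genes 1.4% were, the rule's genes among them. The list had a median of 0.83, where all 999 genes had a median of -0.07. In macrometastasis Dapl1, a gene of resting naive T cells, was at 78.6 CPM (Ctrl) and 123 CPM (Tim3-KD) in members against 27.3 and 14.3 CPM in the other CD8 T cells. It was not analysed in micrometastasis.

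The cytotoxic genes lay on the other side. Gzma, which encodes granzyme A (chromosome 13, 113093825 to 113100981, minus strand), was at 412, 804, 41.5 and 30.7 CPM in members against 2120, 3075, 1232 and 1202 CPM in the other CD8 T cells, a median difference of -3.46. Gzmb, for granzyme B (chromosome 14, 56258838 to 56262260, minus strand), was at 154, 323, 264 and 137 CPM against 1059, 997, 664 and 541 CPM. Prf1, for perforin, had a median difference of -1.88. Nkg7, a protein of cytotoxic granules (chromosome 7, 43437073 to 43438249, plus strand), was at 1000, 1235, 629 and 712 CPM against 3065, 2768, 1452 and 2002 CPM. The Gzma and Gzmb UMIs came from few members. Gzmb had a UMI in 7 of 44, 8 of 25, 8 of 48 and 11 of 59 members, and in 0% to 0.762% of the B cells of these libraries. Gzma had a UMI in 8, 5, 2 and 4 members of the 4 libraries, and in 0.762% to 1.27% of the B cells. Of the 14 measured effector genes 6 passed 2-fold in all 4 libraries (Ccl4, Gzma, Gzmb, Nkg7, Prf1 and Xcl1), with a list median of -1.54. Cxcr6, the receptor that holds T cells in the liver, differed by -2.23 and was the only 1 of 6 measured residency genes past the threshold. Checkpoint genes had 0 of 5 past it at a median of -1.05, and cell cycle genes 0 of 10 at a median of -1.60, where 1.6% of all genes were past it, so these counts are too small to read. Havcr2, the gene of TIM3 itself, had 0, 7, 3 and 3 UMIs in members against 33, 87, 47 and 72 UMIs in the other CD8 T cells, and a median difference of -2.22. This level describes T cells and does not check the knockdown, which was in the tumour cells.

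The genes with the highest median difference also included Siglech, Klk1, Ccr9, H2-Aa, H2-Ea and H2-Ab1, whose UMIs lay mostly in the few cells described above. Without the cells that had Siglech, at least 10 MHC class II UMIs or cycling genes, the median difference was -0.40 for H2-Aa and -0.57 for H2-Ab1. Among the genes of lowest median, Ube2c gave 0.23 without such cells. Spp1 (-3.26), Prc1 (-2.23), Cenpf (-2.14), Fgl2 (-1.98) and Ccl5 (-1.96) were also among the 10 lowest but did not reach 2-fold in all 4 libraries.

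**Figure D2:**
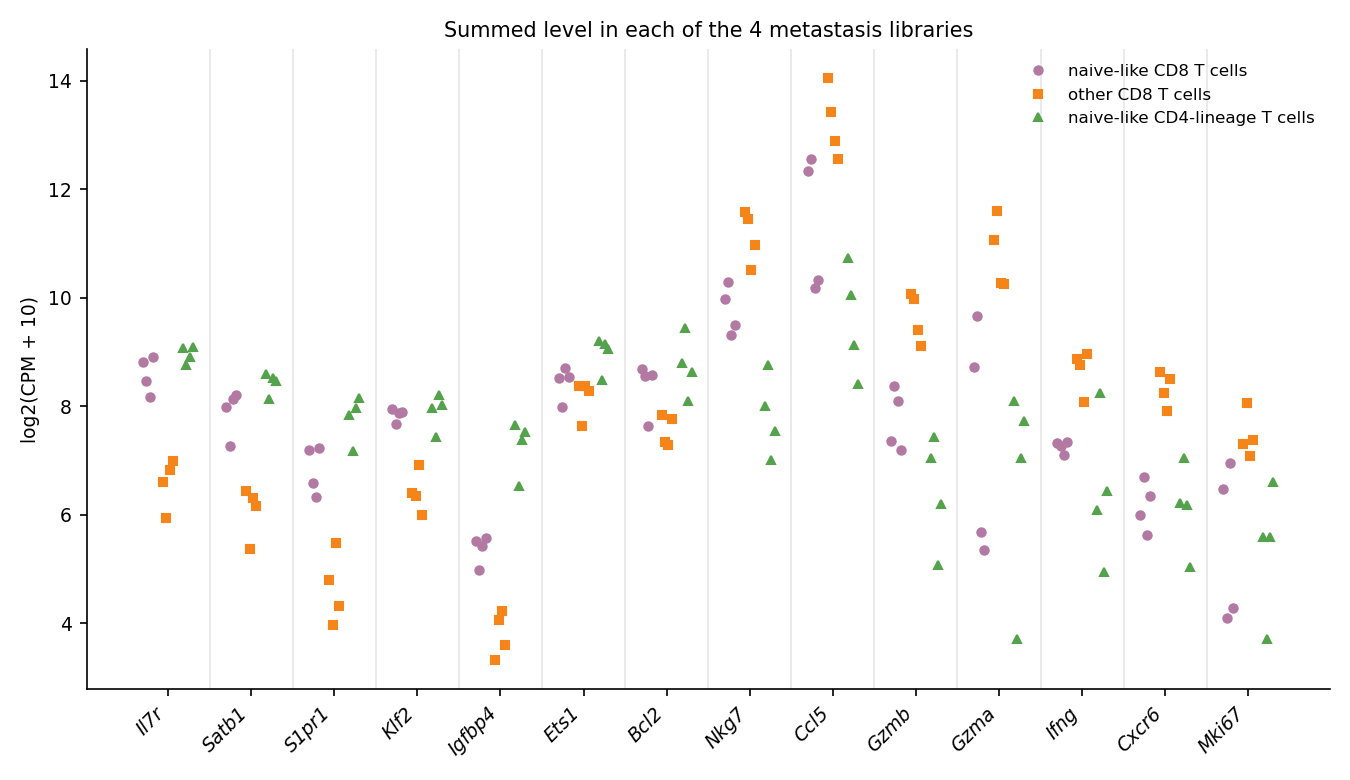
Levels of 14 genes in naive-like CD8 T cells, other CD8 T cells and naive-like CD4-lineage T cells, as log2(CPM + 10), with 1 point for each of the 4 metastasis libraries. Il7r and Satb1 were higher in all 4 member sums than in any of the other CD8 T cells, and Nkg7, Gzmb and Gzma were lower.

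The RefSeq windows around the starts of Il7r and Nkg7 (GRCm38.p6, 250 bases before to 50 after the start) are shown because these genes stood on opposite sides of the comparison with the other CD8 T cells. Il7r lies at chr15:9529827-9530126 on the minus strand and Nkg7 at chr7:43436888-43437187 on the plus strand. Capitals mark letters of a RUNX (TGTGGT), ETS (CAGGAAG), TCF/LEF (CTTTGAA or CTTTGAT) or KLF (CACCC) motif, searched on both strands, and matches of 1 motif may overlap.
Il7r: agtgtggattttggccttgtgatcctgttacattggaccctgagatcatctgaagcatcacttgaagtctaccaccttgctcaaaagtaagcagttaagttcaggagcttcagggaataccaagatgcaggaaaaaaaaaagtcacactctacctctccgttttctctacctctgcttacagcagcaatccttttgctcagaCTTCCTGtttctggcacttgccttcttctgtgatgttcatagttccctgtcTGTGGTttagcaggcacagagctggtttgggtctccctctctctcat
Nkg7: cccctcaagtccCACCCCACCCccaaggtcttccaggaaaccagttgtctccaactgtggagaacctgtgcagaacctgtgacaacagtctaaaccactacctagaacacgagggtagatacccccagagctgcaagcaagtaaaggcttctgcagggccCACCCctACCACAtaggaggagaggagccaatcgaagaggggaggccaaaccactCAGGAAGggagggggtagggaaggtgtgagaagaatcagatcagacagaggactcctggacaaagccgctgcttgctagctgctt
Both windows hold 1 RUNX and 1 ETS match and 0 TCF/LEF matches, and the Nkg7 window holds 3 KLF matches where that of Il7r holds 0. Of 32851 RefSeq windows of this length 16.8% hold the RUNX letters, 13.3% the ETS letters, 8.65% a TCF/LEF form and 57.5% the KLF letters. A match describes the letters only.

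The second comparison set members beside naive-like CD4-lineage T cells, 715 cells that passed the T cell, naive and Cd79a conditions and had a mean CD8 score of at most 0. Of 1040 genes, 10 (0.962%) were at least 2-fold higher in members in all 4 metastasis libraries and 4 (0.385%) at least 2-fold lower. The higher genes were Cd8a and Cd8b1, which the rule used, and Nkg7, Ccl5, Klrd1, Klrc2, Nr4a2, Ccr9, Runx2 and Rnase6. The lower genes were Igfbp4, Trib2, Pdlim4 and Tmem64. Nkg7 had 246, 422, 119 and 177 CPM in the CD4-lineage cells, so members lay between them and the other CD8 T cells in every metastasis library. Klrd1, the CD94 chain of NK receptors, was at 158, 302, 164 and 206 CPM in members against 67.4, 82.5, 40.8 and 53.7 CPM. Igfbp4, an IGF-binding protein known from naive T cells (chromosome 11, 99041244 to 99054392, plus strand), was at 35.8, 21.5, 32.8 and 37.8 CPM in members against 191, 82.5, 156 and 175 CPM in CD4-lineage cells. The naive and recirculation list had 1 gene higher (Ccr9) and 1 lower (Igfbp4) of 19 at a median of -0.29, and the median over all genes was -0.04. The Ccr9 UMIs of members lay mostly in the Siglech cell of each library (11 of 11, 9 of 10, 8 of 11 and 8 of 10), and without the Siglech, MHC class II and cycling cells its median difference was 0.37. Il7r was at 526, 422, 471 and 533 CPM in CD4-lineage cells, a median difference of -0.27 in members. S1pr1 was at 218, 135, 239 and 276 CPM there, a median difference of -0.79. Both genes were somewhat lower in members than in CD4-lineage cells of the same library, in each of the 4 libraries. H2-Ab1, H2-Aa, H2-Ea, Siglech, H2-Eb1, Klk1, Tnfrsf9, Nrgn and H1f5 had, with Nkg7, the 10 highest medians (1.88 to 2.80). For the 4 MHC class II genes the medians were -0.22, -0.28, -0.11 and -0.27 (H2-Ab1, H2-Aa, H2-Ea and H2-Eb1) without the dendritic-marker and cycling cells. At the other end stood Ccl6, Cd4, Igfbp4, Saa3, Chil3, Anxa1, Trib2, Pdlim4, F13a1 and Tmem64 (-2.27 to -1.54).

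Ccl5, a chemokine of effector and memory T cells (chromosome 11, 83525778 to 83530518, minus strand), divided the members. Its level was 2236 CPM in adjacent tissue Ctrl, 4.54 in adjacent tissue Tim3-KD, 5168 in micrometastasis Ctrl, 6003 in micrometastasis Tim3-KD, 1149 in macrometastasis Ctrl and 1280 in macrometastasis Tim3-KD. These sums rested on a part of the cells. At least 3 UMIs of Ccl5 were present in 5 of 15 members (33.3%, 11.8% to 61.6%) in adjacent tissue Ctrl and in 0 of 13 in adjacent tissue Tim3-KD, for which the exact upper bound on the share of cells with so many UMIs, not of cells expressing the gene, is 24.7%. Micrometastasis had 19 of 44 (43.2%, 28.3% to 59.0%) with Ctrl and 10 of 25 (40.0%, 21.1% to 61.3%) with Tim3-KD. Macrometastasis had 12 of 48 (25%, 13.6% to 39.6%) and 17 of 59 (28.8%, 17.8% to 42.1%). The lowest member of every library had 0 Ccl5 UMIs and the median was 0 UMIs per 10000 in adjacent tissue and macrometastasis, 1.17 in micrometastasis Ctrl and 1.63 in micrometastasis Tim3-KD. The highest was a macrometastasis Ctrl cell with 623 UMIs per 10000.

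Any Ccl5 UMI was found in 40.0%, 7.69%, 52.3%, 52.0%, 39.6% and 42.4% of members in the 6 libraries. B cells, which should lack the gene, had it in 1.14% to 9.84% of cells at median depths of 3580 to 9586 UMIs, and the other CD8 T cells in 75% to 94.4%. After each cell was thinned to 1500 UMIs the members' shares were 20.0%, 0%, 43.2%, 40.0%, 27.1% and 28.8%, and those of B cells 0% to 3.11%. The members of adjacent tissue Tim3-KD were at or below the B cell share of their own library, and the members of the other 5 libraries were above it.

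**Figure D3:**
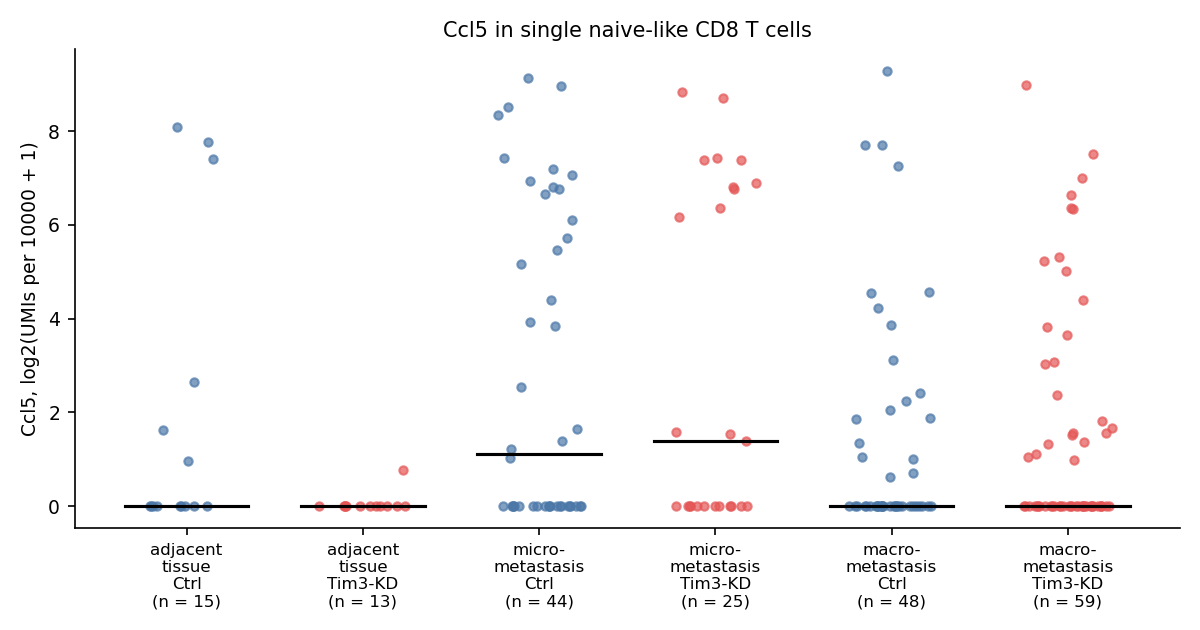
Ccl5 in single naive-like CD8 T cells, as log2(UMIs per 10000 + 1), for the 6 libraries. Each point is 1 cell and each bar the median of the library. Part of the cells in 5 libraries reached high levels while the median stayed at 0 in adjacent tissue and macrometastasis, and in adjacent tissue Tim3-KD 12 of 13 cells had no UMI.

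Members with at least 3 Ccl5 UMIs were compared with the rest within each library, a split chosen after the values of Ccl5 had been seen. The Ccl5 part was the deeper one in each metastasis library, with medians of 5441 against 5262 UMIs in micrometastasis Ctrl, 4665.5 against 4124 in micrometastasis Tim3-KD, 7033.5 against 5741 in macrometastasis Ctrl and 7265 against 5459 in macrometastasis Tim3-KD. The split is on raw UMIs, and the part of depth in it was not tested. Nkg7 was 3.66-fold higher (2.76 to 4.91) in the Ccl5 part in micrometastasis Ctrl, 4.13-fold (2.97 to 5.83) in micrometastasis Tim3-KD, 1.35-fold (1.06 to 1.71) in macrometastasis Ctrl and 2.36-fold (1.86 to 2.99) in macrometastasis Tim3-KD. The Gzmb UMIs divided as 42 to 1, 43 to 2, 105 to 16 and 56 to 2 between the Ccl5 part and the rest. Gzma divided as 114 to 1, 112 to 0, 18 to 1 and 13 to 0. Ifng, for interferon-γ, was at 295, 326, 246 and 309 CPM in the Ccl5 part and at 20.4, 44.3, 55.7 and 50.4 CPM in the rest. In macrometastasis Ctrl the granzyme splits rested on 1 cell. A single cell held 94 of the 121 Gzmb UMIs, and without it Gzmb divided as 11 to 16. A single cell also held all 18 Gzma UMIs of the Ccl5 part there. In the other 3 metastasis libraries the Ccl5 part kept 92% to 97.1% of the Gzmb UMIs without the highest cell. Ccl4 and Xcl1, chemokines of the effector list, were not higher in the Ccl5 part of macrometastasis Ctrl. Ccl4 had 37 UMIs in the Ccl5 part and 158 in the rest there (ratio 0.394, 0.268 to 0.566), of which 1 cell held 105, and without that cell the ratio was 1.1 (0.716 to 1.74). Xcl1 had 3 and 44 UMIs (0.115, 0.0228 to 0.358), and a ratio of 0.205 (0.0394 to 0.678) without its highest cell. In the other 3 metastasis libraries both genes had the higher level in the Ccl5 part. Without its highest cell Ccl4 kept an interval above 1 in these 3 libraries, as did Xcl1 in macrometastasis Tim3-KD. Xcl1 then had a ratio of 2.11 (0.827 to 5.81) in micrometastasis Ctrl. In micrometastasis Tim3-KD it had 5 and 0 UMIs, and 2 and 0 without the highest cell.

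The naive genes differed among themselves between the parts. S1pr1 had ratios of 0.297 (0.117 to 0.662), 0.368, 0.471 and 0.399 (0.193 to 0.764) in the 4 metastasis libraries, with the intervals in micrometastasis Tim3-KD and macrometastasis Ctrl reaching over 1. Lef1 and Ccr7, which the rule used, had ratios of 0.311 and 0.309 in micrometastasis Ctrl, 0.670 and 0.598 in micrometastasis Tim3-KD, 0.392 and 0.387 in macrometastasis Ctrl and 0.501 and 0.642 in macrometastasis Tim3-KD, and in micrometastasis Tim3-KD both intervals reached over 1 (0.258 to 1.56 and 0.294 to 1.14). Tcf7, the other naive gene of the rule, had ratios of 0.997 and 0.975 in micrometastasis (Ctrl and Tim3-KD) and of 0.487 and 0.542 in macrometastasis. Klf2 had 0.985 in micrometastasis Ctrl and 0.526, 0.691 and 0.580 in the other metastasis libraries, with an interval below 1 only in macrometastasis Tim3-KD (0.355 to 0.922). The levels of Lef1, Tcf7 and Ccr7 are a description, as the rule used them. Il7r was at 288 and 579 CPM (Ccl5 part and rest) in micrometastasis Ctrl, 388 and 321 in micrometastasis Tim3-KD, 187 and 334 in macrometastasis Ctrl and 339 and 555 in macrometastasis Tim3-KD. Of these 4 libraries 3 had less Il7r in the Ccl5 part, and micrometastasis Tim3-KD was the exception.

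Members from livers seeded with Tim3-KD cells were then set against those from livers with Ctrl tumour cells. Ratios are of CPM summed over the members, with the exact conditional binomial interval, and a gene is counted where it had at least 50 UMIs over both libraries. In micrometastasis (25 members against 44), 9 of 157 genes (5.73%) were at least 2-fold higher with Tim3-KD and 11 (7.01%) at least 2-fold lower. In macrometastasis (59 against 48), 10 of 231 (4.33%) were higher and 23 (9.96%) lower. The median ratio over all genes was 0.977 in micrometastasis and 1.03 in macrometastasis. A feature at each site differed over the whole library and not in members alone. Rps18-ps5, a ribosomal pseudogene, had 373 UMIs in Tim3-KD members and 0 in Ctrl members of micrometastasis, and over all CD45+ cells a UMI in 82.1% of Tim3-KD and 1.19% of Ctrl cells. Gm46142 had 142 UMIs in the Ctrl members of macrometastasis and 5 in the Tim3-KD members, and a UMI in 56.6% of all Ctrl and 2.65% of all Tim3-KD cells. Both features were singled out after their values had been seen. Ctrl and Tim3-KD of a site thus differed in features of whole libraries, and any difference between the libraries in mice, preparation or processing cannot be told apart from the tumour line in the ratios that follow.

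In micrometastasis the highest ratios with Tim3-KD were those of Gpr183, Rgs1, Ctss, Malt1, Txnip and Hspa1a. Gpr183, a receptor that guides lymphocytes within lymphoid tissue, was at 108 CPM with Ctrl and 287 CPM with Tim3-KD, a ratio of 2.67 (1.62 to 4.44), and was found in 20 of 44 and 16 of 25 cells. Rgs1, a brake on chemokine receptor signalling that marks tissue T cells, was at 161 and 424 CPM, a ratio of 2.63 (1.75 to 3.96). Malt1, a protease of antigen receptor signalling, had a ratio of 2.35 (1.30 to 4.29) and Txnip, which limits glucose uptake, 2.32 (1.63 to 3.31). Rgs1 also had an interval above 1 in macrometastasis, at 1.46 (1.09 to 1.97), where Gpr183 had 1.35, Malt1 1.21 and Ctss 1.18 with intervals that reached below 1. Txnip was not analysed in macrometastasis. Ctss had a ratio of 2.56 (1.47 to 4.51), and it is a lysosomal protease that macrophages also express, in the library whose members had the most Kupffer UMIs. Hspa1a rested on 4 cells with Tim3-KD and 5 with Ctrl, with 74.2% and 58.6% of its UMIs in 1 cell. Its direction turned under alternatives given with the processing below.

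The lowest ratios in micrometastasis were those of Pclaf, Sgk1, Ltb, Cst3, H1f5 and H4c4. Ltb, for lymphotoxin-β, a cytokine of resting lymphocytes (chromosome 17, 35194439 to 35196320, plus strand), had 12 UMIs in 6 of 25 Tim3-KD members and 104 UMIs in 37 of 44 Ctrl members. Its levels were 86.2 and 373 CPM and its ratio 0.231 (0.116 to 0.421). No single cell carried it, since the highest Ctrl cell held 12.5% of the UMIs. In macrometastasis Ltb was at 322 CPM with Tim3-KD and 474 CPM with Ctrl, a ratio of 0.679 (0.544 to 0.845). Sgk1, a kinase under the control of growth signals, was at 35.9 and 179 CPM, a ratio of 0.20 (0.0624 to 0.50), and at 0.774 (0.468 to 1.27) in macrometastasis. Cst3 rested on 1 Ctrl cell with 92.8% of the UMIs, and without the highest cell of each library its log2 ratio was 1.09 in place of -2.01. Pclaf (0.116) and the histone genes H1f5 (0.263) and H4c4 (0.371) are genes of dividing cells, of which micrometastasis had 2 among 44 Ctrl members and 1 among 25 Tim3-KD members.

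Lef1, Tcf7 and Ccr7 were used by the rule, so their levels in members are given as a description. In micrometastasis Lef1 had a ratio of 0.939 (0.588 to 1.47), Tcf7 0.947 (0.570 to 1.54) and Ccr7 0.924 (0.654 to 1.29). Il7r, which the rule did not use, had 0.782 (0.548 to 1.10). Of the naive and recirculation genes counted, 0 of 15 were past 2-fold there, where 5.73% of all genes were higher and 7.01% lower. Their median ratio was 0.825, and that of all genes 0.977. In macrometastasis 0 of 16 were past 2-fold, where 4.33% of all genes were higher and 9.96% lower, at a median of 1.23 against 1.03. These counts are too small to read. In macrometastasis Il7r was at 280 CPM with Ctrl and 471 CPM with Tim3-KD, a ratio of 1.68 (1.34 to 2.12), and was detected in 37 of 48 and 49 of 59 cells. Ccr7, a gene of the rule, had a ratio of 1.26 (1.04 to 1.53) there. For Ccl5 the ratio was 1.16 (1.07 to 1.27) at day 3 and 1.11 (0.986 to 1.26) at day 12. Without the highest cell of each library it was 1.10 (0.994 to 1.21) and 1.27 (1.09 to 1.46), so which of the intervals excluded 1 depended on single cells. Gzmb had a ratio of 2.10 (1.35 to 3.26) in micrometastasis, from 8 of 25 and 7 of 44 cells, and 0.519 (0.373 to 0.716) in macrometastasis, where 1 Ctrl cell held 77.7% of the Ctrl UMIs. Without the highest cell of each library Gzmb stood at 1.48 (0.845 to 2.55) at day 3 and at 1.58 (0.947 to 2.68) at day 12, where its direction turned. The effector list had 2 of 9 genes at least 2-fold higher in micrometastasis (Gzmb and Ccl3), where 5.73% of all genes were, and 0 of 9 past 2-fold in macrometastasis. Ccl3 was seen in 4 Tim3-KD and 6 Ctrl cells, and 1 Tim3-KD cell held 59.3% of its UMIs. Its ratio was 2.08 (1.17 to 3.71), and 1.45 (0.607 to 3.32) without the highest cell of each library.

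In macrometastasis the highest ratios were those of H2-Ab1 (4.84), H2-Eb1 (4.38) and H2-Ea (4.21), and 81.4% to 90.6% of their Tim3-KD UMIs were in 1 cell. Next came Ramp1, a subunit of the receptor for the neuropeptide CGRP (chromosome 1, 91179822 to 91225196, plus strand), at 65.5 CPM with the Ctrl line and at 192 CPM with the knockdown, a 2.92-fold difference (1.90 to 4.61). Ramp1 was seen in 17 of 48 and 23 of 59 cells, and 1 Tim3-KD cell held 46.9% of its UMIs. Without the highest cell of each library its ratio was 1.90 (1.14 to 3.23). In micrometastasis Ramp1 was at 64.5 CPM with Ctrl and 136 CPM with Tim3-KD, a ratio of 2.12 (1.05 to 4.27), but from 18 and 19 UMIs, under the minimum of 50 for a counted gene. Arl4a, a small GTPase, had a ratio of 2.68 (1.49 to 5.01) from 14 of 48 and 27 of 59 cells. Tespa1, an adaptor needed for T cell receptor signalling in the thymus, had 2.50 (1.36 to 4.82) from 11 of 48 and 25 of 59 cells, and no cell held over 12.5% of its UMIs. The lowest were H1f5 (0.0129), Pclaf (0.0164), Cxcl10 (0.0394), Smc2 (0.0637), Mki67 (0.0833) and Stmn1 (0.0903). All 5 measured cell cycle genes were at least 2-fold lower with Tim3-KD, where 23 of all 231 genes (9.96%) were. With Tim3-KD 1 of 59 members was cycling against 3 of 48 with Ctrl. The highest Ctrl cell held 53.3% to 72.0% of the UMIs of H1f5, Pclaf, Smc2, Mki67 and Stmn1. Without the Siglech, MHC class II and cycling members, and with the minimum of 50 UMIs applied to the cells left, 6 genes were at least 2-fold lower in macrometastasis and 2 in micrometastasis.

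**Figure D4:**
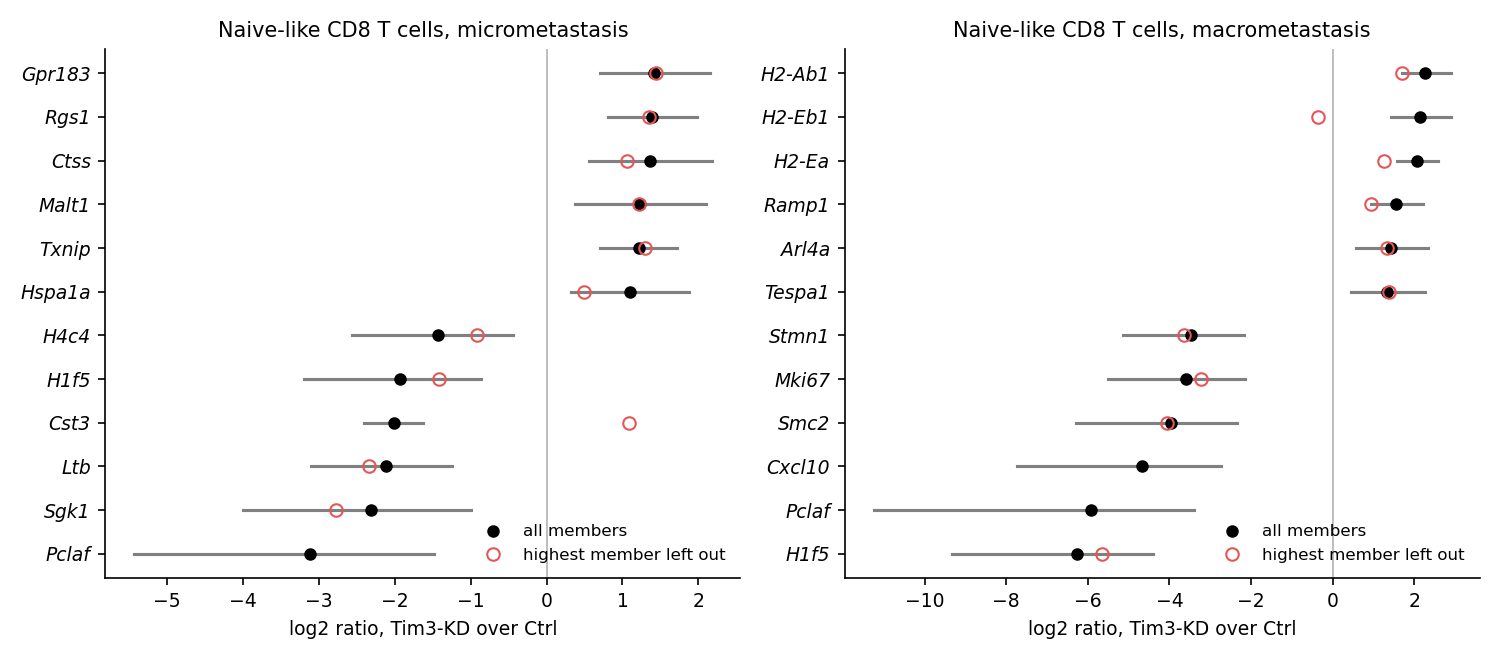
Log2 ratio of Tim3-KD over Ctrl in naive-like CD8 T cells for the 12 named genes with the most extreme ratios (6 upward, 6 downward) in micrometastasis and in macrometastasis. Filled points are all members with 95% intervals (counting error only), and open points leave out the cell with the most UMIs of the gene in each library. Cst3 and H2-Eb1 change sign without that cell, and Gpr183, Rgs1, Malt1, Txnip, Ltb and Tespa1 keep their direction.

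Day 12 macrometastasis was set beside day 3 micrometastasis within each tumour line. Of 142 genes with at least 50 UMIs in both pairs, 1 (0.704%) was at least 2-fold higher in macrometastasis in both lines and 3 (2.11%) at least 2-fold lower. Dut, an enzyme of nucleotide metabolism, was the higher gene, with ratios of 2.32 (1.49 to 3.72) in Ctrl and 2.43 (1.16 to 5.89) in Tim3-KD. Its UMIs lay in few cells, as 1 cell held 41.4% of them in macrometastasis Ctrl, 55.9% in macrometastasis Tim3-KD, 42.3% in micrometastasis Ctrl and 87.5% of the 8 UMIs in micrometastasis Tim3-KD. Without these cells Ctrl had a ratio of 2.64 (1.48 to 5.02), and Tim3-KD had 26 UMIs against 1. Ccl5 had ratios of 0.222 (0.201 to 0.246) in Ctrl and 0.213 (0.191 to 0.238) in Tim3-KD. Gzma had ratios of 0.101 (0.0585 to 0.164) and 0.0382 (0.0197 to 0.0681), with 115 UMIs at day 3 and 19 at day 12 in Ctrl, and 112 and 13 in Tim3-KD. In macrometastasis Ctrl 1 cell held 94.7% of the Gzma UMIs. Ifi27l2a, an interferon-stimulated gene, had ratios of 0.437 (0.345 to 0.552) and 0.443 (0.352 to 0.559). Both lines thus had less Ccl5, Gzma and Ifi27l2a per member at day 12. For Ccl5 and Gzma this was not particular to the members. In the other CD8 T cells Ccl5 was at 16835 (Ctrl) and 10927 CPM (Tim3-KD) at day 3 and at 7589 and 6029 CPM at day 12. Gzma was at 2120 and 3075 CPM there at day 3 and at 1232 and 1202 CPM at day 12. The sites were gated on separately scaled scores and taken on different days, and the effect of the gate cannot be told apart from that of the stage.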

How the data were processed

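The libraries (10x Genomics 3' v3.1) were made from pieces of liver digested with collagenase and DNase and sorted on CD45. The authors trimmed reads (Trim Galore 0.4.3), mapped them (STAR 2.7.7a, GRCm38), counted UMIs over exons and introns, filtered cells on UMIs, genes and mitochondrial reads and removed doublets called with scrublet, so none were called again. The 3 deposited matrices, 1 per site with both tumour lines, hold scores: per gene, log-normalised UMIs with the total UMIs of the cell regressed out, scaled and capped at 10. The last points were read from the values, as the methods do not state the regression. Scores were turned back into UMIs, of which 99.9961% to 99.9996% lay within 0.05 of a whole number, and the inversion was tested on simulated data. Capped values (0.144% to 0.160% of detected ones) are lower bounds. Features naming several genes (218 over the matrices) were not used under a symbol.

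Groups came from the sample titles. Shares have exact Clopper-Pearson intervals, differences Newcombe intervals, CPM exact Poisson intervals and ratios exact conditional binomial intervals, all covering counting error only. Comparisons between populations needed 20 cells in each and 10 CPM was added. Comparisons of Tim3-KD with Ctrl had been planned for 50 members per library, which no site reached, and 20 were used instead. Named genes were the rule's genes, up to 6 members of a list by UMIs, and the genes of highest and lowest ratio (6 each) or median fold (10 each), leaving out mitochondrial, ribosomal protein, haemoglobin, immunoglobulin, receptor variable and unnamed genes. Other genes named were singled out after their values were seen. The members and gene lists were chosen with earlier results of these data known. Some genes of the lists are not reported here. Positions are from GENCODE M21. Python 3.11.15, numpy 2.4.6, scipy 1.17.1, pandas 2.3.3 and matplotlib 3.10.9 were used. Alternatives were other gates, a UMI rule, depth limits, other denominators and scalings, and leaving out doubtful cells.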

Additional observations from a re-analysis of the deposited data

Results flagged for a closer look

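The following differences have one sign in micrometastasis and the other in macrometastasis. With 1 library per group the difference between the sites was not tested. The share of members among CD45+ cells differed between Tim3-KD and Ctrl by -0.376 percentage points in micrometastasis (-0.708 to -0.0574) and by 0.0953 points in macrometastasis (-0.301 to 0.486). Their share among CD8 T cells differed by -17.0 points in micrometastasis (-26.8 to -6.98) and by 1.18 points in macrometastasis (-10.0 to 12.2). Both macrometastasis intervals reach over 0, as does that of the micrometastasis difference among T cells (-3.35 points, -7.08 to 0.446). Without cells holding UMIs of other lineages the macrometastasis differences were -0.135 and -7.40 points, with the sign of micrometastasis, and raised gates gave -0.0145 and -2.07 points. The opposite signs of the shares therefore did not hold under these settings.

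The ratio of Tim3-KD over Ctrl in members was 0.516 in micrometastasis and 4.84 in macrometastasis for H2-Ab1, 0.462 and 4.21 for H2-Ea, and 0.447 and 4.38 for H2-Eb1. In micrometastasis 1 Ctrl cell held 91.1% of the H2-Ea and 95.1% of the H2-Eb1 UMIs of its library, and in macrometastasis 1 Tim3-KD cell held 81.4% and 90.6%.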

How the results depend on the processing

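No paired analysis was made, as each group had only 1 library. Tim3-KD and Ctrl could be paired by site, but an exact sign-flip test cannot go below p = 0.25 over the 3 sites, or 0.5 over the 2 sites with enough members for gene levels, and it was not run. With 1 library per group no replicate could be left out. Of 163 shares, differences of shares and counts recomputed under an alternative, 129 kept their sign and stayed within their interval or within 1.5 times the value given. Of 420 values of single genes 300 stayed close to the value given. For the named folds between populations, close meant within the standard deviation of the folds over the libraries. For the rest it meant within the interval or the range over the libraries.

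With T cells as the denominator members made up 8.52% (Ctrl) and 10.6% (Tim3-KD) of adjacent tissue, 9.84% against 6.49% at micrometastases, and 10.1% against 10.4% at macrometastases. The micrometastasis difference was then -3.35 points (-7.08 to 0.446), with an interval that reached over 0, unlike that among CD45+ cells or CD8 T cells. A UMI rule in place of scores gave 0.311% of CD45+ cells and 10.1% of CD8 T cells in micrometastasis Tim3-KD. Gates raised by 0.25 gave 0.800% and 29.9% in macrometastasis Tim3-KD. Without members holding UMIs of other lineages, the shares of CD45+ cells were 0.610% (Ctrl) against 0.369% (Tim3-KD) for adjacent tissue, 0.705% against 0.311% for micrometastasis, and 0.753% against 0.618% for macrometastasis. Tim3-KD minus Ctrl thus changed sign to -0.241 points in adjacent tissue and -0.135 points in macrometastasis. Without CD8 T cells holding such UMIs, an alternative chosen after seeing the data, the share of CD8 T cells in adjacent tissue Tim3-KD was 33.3%, and the differences among CD8 T cells changed sign to -10.7 points in adjacent tissue and -7.40 points in macrometastasis. The macrometastasis difference also changed sign with raised gates, to -0.0145 points of CD45+ cells and -2.07 points of CD8 T cells, and with the UMI rule, to -0.427 points of CD8 T cells. In micrometastasis the difference was negative under every alternative run. Among CD45+ cells, leaving out members with UMIs of other lineages could not have changed that sign, as a larger part of the members fell out with Tim3-KD.

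At a minimum of 20 UMIs, 44 genes were higher and 42 lower with Tim3-KD in micrometastasis, and 49 and 87 in macrometastasis. Without the Siglech, MHC class II and cycling members 2 genes were lower in micrometastasis and 6 in macrometastasis. A mean over cells gave 16 higher genes of 231 in macrometastasis, against 10 of 231 with sums. Against other CD8 T cells, 1 CPM in place of 10 gave 27 higher genes of 999, against 14 in the main setting. The lower genes, 16 of 999 in the main setting, numbered 28 with a mean over cells, 36 with gates raised by 0.25 and 25 without the Siglech, MHC class II and cycling cells. Against CD4-lineage cells, 1 CPM gave 9 lower genes of 1040, against 4 in the main setting.

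These log2 values changed sign. Without members holding other lineages' UMIs they were -0.47 for Hspa1a and 0.084 for Cst3 in micrometastasis and -2.83 for H2-Ab1 and -2.65 for H2-Eb1 in macrometastasis. Without the Siglech, MHC class II and cycling cells they were -0.70 for Hspa1a, 1.47 for Cst3 and 1.64 for H1f5 in micrometastasis, and -0.19 for H2-Eb1 and -1.77 for H2-Ea in macrometastasis. The same alternative gave -0.40 for H2-Aa, -0.57 for H2-Ab1 and 0.23 for Ube2c against other CD8 T cells, and -0.22 for H2-Ab1, -0.28 for H2-Aa, -0.11 for H2-Ea and -0.27 for H2-Eb1 against CD4-lineage cells. Among members with at least 3 Ccl5 UMIs Hspa1a gave -1.82. Among the rest Cst3 gave 3.31 in micrometastasis and Mki67 0.16 in macrometastasis. Without the highest cell of each library Cst3 gave 1.09 in micrometastasis, and H2-Eb1 -0.36 and Gzmb 0.66 in macrometastasis. Raised gates gave -0.28 for Klk1 against other CD8 T cells. These alternatives use fewer cells or genes by construction. Leaving out the Siglech, MHC class II and cycling cells or the highest cell, and the Ccl5 split, were chosen after seeing the data. The cause was not tested.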

Other observations

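Ctla4, a checkpoint receptor that activated T cells show, had 8 and 1 UMIs in the members of adjacent tissue Ctrl and Tim3-KD. In micrometastasis its level in members was 179 CPM (133 to 236) with Ctrl and 230 CPM (157 to 324) with Tim3-KD, and in macrometastasis 107 CPM (79.2 to 141) and 170 CPM (133 to 214). The other CD8 T cells had 325, 216, 176 and 262 CPM in these 4 libraries, so the members were lower in 3 of them and close in micrometastasis Tim3-KD, where 14 of 25 members had a UMI. B cells, which should lack the gene, had 4.10 to 7.79 CPM there.

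Cd69, an early activation marker that also holds T cells in tissue, was at 449, 463, 398, 338, 341 and 244 CPM in members and at 411, 287, 276, 152, 232 and 210 CPM in the other CD8 T cells, over adjacent tissue, micrometastasis and macrometastasis with Ctrl before Tim3-KD. The members had the higher level in each of the 6 libraries. The intervals of members and other CD8 T cells lay apart in 3 libraries, which were micrometastasis Ctrl (327 to 479 against 235 to 323), micrometastasis Tim3-KD (248 to 449 against 128 to 180) and macrometastasis Ctrl (289 to 399 against 200 to 268). B cells had up to 352 CPM of Cd69, within the range of the members. Both genes were singled out after their values had been seen.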
